A study of Mus musculus with 6 samples.

Results

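The complement system was examined in liver RNA of PiZ and wild-type mice, as a list of 46 named components, regulators and receptors. The list was given by name and not by a cut-off on measured values, but it was chosen with earlier results of these data known. Of the 46, 37 had a probe set annotated to that gene alone, out of 12393 genes so measured in all, and each gene was read by its brightest such probe set. The other 9, namely C1s, C1rl, C3, C4a, C4b, C7, Cfd, Fcnb and Colec11, had no probe set of their own in the annotation used and were not analysed here. Liver total RNA of 3 wild-type and 3 PiZ mice was hybridised to one-colour Affymetrix arrays, 1 array per biological replicate. All 6 animals were 6 weeks old and on a C57BL/6 background, and no treatment is named in the labels. PiZ mice carry a transgene for the Z form of human alpha-1 antitrypsin, a secreted protease inhibitor that in this form misfolds and collects in the endoplasmic reticulum of hepatocytes. The sources used here do not give the transgene's promoter or copy number or the sex of the animals. The comparison asks which of these genes differ in liver that makes the mutant protein.

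Complement is a cascade of plasma proteases and binding proteins that marks and lyses microbes and clears debris, and hepatocytes make most of its circulating components. It starts by the classical pathway (C1q with the proteases C1r and C1s), the lectin pathway (mannose-binding lectins and ficolins with MASP proteases) or the alternative pathway (factors B and D and properdin). All routes cleave C3 and then C5, and the terminal components C5b to C9 assemble into the membrane attack complex. Regulators on cell surfaces and in plasma hold the cascade in check, and receptors on leukocytes read its products. C1q is an exception among the soluble components, since macrophages, which in liver are mainly Kupffer cells, make most of it.

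Values are log2 intensities. A difference is the PiZ mean minus the wild-type mean in log2 units, fitted with limma and given with its standard error (SE), n = 3 per group unless arrays are said to be left out. Adjusted p is the Benjamini-Hochberg value over all 12393 genes, and a gene passed, and is said to have risen or fallen, where it was below 0.05. The number of arrays limits the precision. PiZ replicate 1 stood apart from PiZ replicates 2 and 3. Its correlation with them over genes was 0.98 and 0.984, against 0.993 between replicates 2 and 3 and 0.996 to 0.997 among wild-type arrays. The control gap, meaning how far the 3′ control probe sets of Gapdh and beta-actin read above the 5′ ones, grows as RNA is shortened. It averaged 2.20 to 2.70 on wild-type arrays and 2.50 on PiZ replicate 1, but 4.64 on PiZ replicate 2 and 4.33 on PiZ replicate 3. Values are therefore also given for PiZ replicate 1 alone against wild-type and for a fit adjusted for the control gap. The former has 1 PiZ array, so its spread comes from the wild-type arrays only. A pass there says nothing of the spread among PiZ animals. The latter is no separate check. Since the gap of PiZ replicates 2 and 3 lies far above the wild-type range, its PiZ difference rests mostly on PiZ replicate 1. For Cfb the former gave -0.68 and the latter -0.69, and for C1s1 they gave -1.13 and -1.14.

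Of the measured complement genes that hepatocytes make, 13 of 19 fell in PiZ liver, while C1q and the leukocyte receptors did not pass. Of the 37 measured genes, 15 fell and 1 rose. Over all genes 23.6% changed, 12.3% fell and 11.3% rose, so falls were 40.5% of the complement genes against 12.3% of all genes. The groups did not overlap for 20 complement genes lower in PiZ (19.9% of all genes) and for 4 higher (24.9% of all genes). At least 2-fold falls were seen for C9, C1s1, Cfb and C1ra, which is 4 of 37 against 3.63% of all genes. The median difference was -0.26 over the complement genes and 0.08 over all genes. In PiZ replicate 1, the array with control values like wild-type, 22 of the 37 read below all wild-type arrays (35.6% of all genes) and 11 above all of them (38% of all genes). Taken alone against wild-type, with the spread of the wild-type arrays only, this array gave 14 lower genes, all of them among the 15 (9.8% of all genes were lower in that fit). Adjusted for the control gap, which also rests mostly on PiZ replicate 1, 10 were lower, all among the 15 (7.64% of all genes fell). Leaving out PiZ replicate 1 gave 21 lower genes (22.4% of all genes fell), and leaving out wild-type replicate 1 gave 9 (4.68% of all genes fell). Without dim genes, those averaging 6.25 or less, 16 of 30 complement genes were lower (20.4% of all genes kept). In bulk liver RNA, fewer cells of a type and less RNA per cell cannot be told apart.

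**Figure D1:**
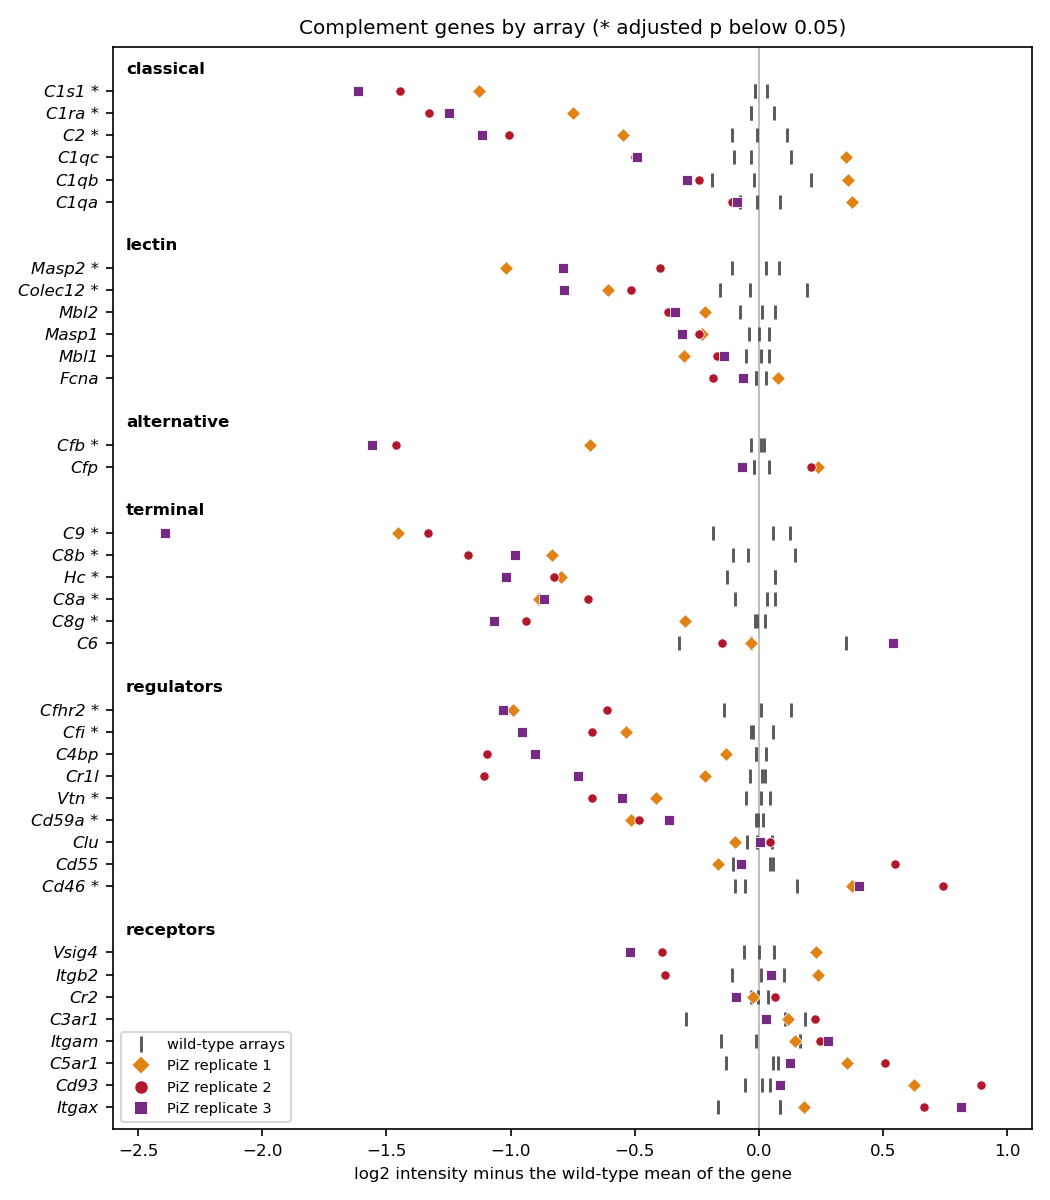
Log2 intensity of each measured complement gene on each array, minus the mean of the 3 wild-type arrays for that gene, grouped by role. Grey ticks are wild-type arrays, coloured symbols the 3 PiZ arrays, and asterisks mark genes with a limma adjusted p below 0.05. All 3 PiZ arrays lie left of wild-type for most classical proteases, terminal components and regulators, whereas for the C1q chains PiZ replicate 1 (orange) lies right and the other PiZ arrays left of wild-type. Of the 8 receptors, Itgax, Cd93 and C5ar1 have all PiZ arrays right of wild-type.

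Promoter sequence was available from RefSeq (build GRCm38.p6) for 28 of the 37 genes, as windows of 250 bases before to 50 after the start site, and 11 of these 28 genes fell. Letters of 7 known motifs were searched on both strands: CAAAGTNCA (HNF4), TTGCNNAA (C/EBP), TTCNNNGAA (STAT), TGATGNAA (C/EBP-ATF), and the longer HNF1, NF-kB and interferon response motifs. These motifs were chosen because factors of hepatocyte identity, acute phase, stress and interferon signalling are known to bind them. The 4 windows below were picked from those of genes that fell and hold HNF1, HNF4, C/EBP or STAT matches, with the matches in capitals. C1s1, C8a, Masp2 and Vtn also fell and hold such matches, and their windows are not printed. Windows with interferon response or NF-kB matches are not printed.
C9 (chr15:6445096-6445395, plus strand): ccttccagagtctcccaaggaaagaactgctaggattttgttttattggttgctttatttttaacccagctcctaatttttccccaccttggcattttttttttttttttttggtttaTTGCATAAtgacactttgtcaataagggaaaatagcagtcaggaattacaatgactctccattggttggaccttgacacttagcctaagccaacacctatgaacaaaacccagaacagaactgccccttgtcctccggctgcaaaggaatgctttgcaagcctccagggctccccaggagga
C1ra (chr6:124512371-124512670, plus strand): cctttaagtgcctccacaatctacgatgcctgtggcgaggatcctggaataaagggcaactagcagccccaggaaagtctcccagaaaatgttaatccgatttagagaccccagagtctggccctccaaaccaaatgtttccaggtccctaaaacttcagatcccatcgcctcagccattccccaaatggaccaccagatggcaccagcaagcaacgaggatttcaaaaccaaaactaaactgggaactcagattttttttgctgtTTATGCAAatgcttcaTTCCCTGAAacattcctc
Hc (chr2:35061363-35061662, minus strand): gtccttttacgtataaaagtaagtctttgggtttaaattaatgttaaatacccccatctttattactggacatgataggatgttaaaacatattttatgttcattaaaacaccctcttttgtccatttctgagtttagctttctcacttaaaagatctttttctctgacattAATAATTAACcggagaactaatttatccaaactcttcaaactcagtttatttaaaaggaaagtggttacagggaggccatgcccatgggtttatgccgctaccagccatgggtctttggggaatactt
Cfhr2 (chr1:139858650-139858949, minus strand): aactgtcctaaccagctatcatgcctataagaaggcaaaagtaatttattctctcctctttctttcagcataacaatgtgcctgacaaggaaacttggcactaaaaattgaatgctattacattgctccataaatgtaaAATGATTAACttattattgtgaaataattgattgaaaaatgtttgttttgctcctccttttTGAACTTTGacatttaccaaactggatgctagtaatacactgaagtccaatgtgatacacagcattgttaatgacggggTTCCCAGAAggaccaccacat
In C9 the capitals are a C/EBP match starting 132 bases before the start site. In C1ra they are a C/EBP and a STAT match starting 17 and 33 bases after it. In Hc they are an HNF1 match starting 78 bases before it. In Cfhr2 they are, from left to right, HNF1 and HNF4 matches starting 111 and 50 bases before the start and a STAT match starting at base 30 after it. No matched stretch of one motif overlapped that of another in these windows. Among the 28 genes, HNF1 letters were found for 3 (C4bp, Cfhr2 and Hc), against 0.399% of all 32851 windows. STAT letters were found for 5 (C1ra, C8a, Cfhr2, Masp2 and Vtn) against 8.3%, C/EBP letters for 3 (C1ra, C1s1 and C9) against 10.8%, and interferon response letters for 3 (Cd46, Cd59a and Vtn) against 3.44%. HNF4 letters were found for 1 (Cfhr2) against 1.41%, NF-kB letters for 1 (C1qb) against 4.59%, and C/EBP-ATF letters for 0 against 3.97%. A match describes the letters only and shows no binding, and a gene with several windows counted once if any held a match. The shares of all windows are counted by window and not by gene, so the comparison is not like for like.

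The classical pathway proteases fell while the C1q chains did not pass. Of 6 measured classical pathway genes, 3 fell and 0 rose (50% lower, against 12.3% of all genes), with a median of -0.55. C1s1, the protease that cleaves C4 and C2, read 11.29, 11.29 and 11.34 in wild-type replicates 1, 2 and 3 and 10.18, 9.86 and 9.69 in PiZ replicates 1, 2 and 3. All PiZ arrays lay more than 1 log2 unit below all wild-type arrays, and PiZ replicate 1 was the highest of them. The difference was -1.40 (SE 0.14, limma adjusted p = 0.00126), a 2.64-fold fall. C1ra, the protease that activates C1s, read 11.28, 11.19 and 11.19 in wild-type and 10.47, 9.89 and 9.97 in PiZ, with no overlap, and fell by 1.11 (SE 0.16, adjusted p = 0.00455). C2, the protease subunit of the C3 convertase of this pathway, read 9.85, 10.07 and 9.95 against 9.41, 8.95 and 8.84. It too showed no overlap and fell by 0.89 (SE 0.16, adjusted p = 0.0101), although adjusted for the control gap it differed by -0.58 (adjusted p = 0.0555). C1ra and C1s1 are direct neighbours on chromosome 6 in the RefSeq gene order. Both have close copies, C1rb and C1s2, and the C1s1 probe set belongs to a class that can read several transcripts, so a share of their signal from the copies cannot be told apart.

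C1q, the recognition molecule of the classical pathway, is built of the products of C1qa, C1qb and C1qc. C1qa read 9.57, 9.41 and 9.48 in wild-type and 9.86, 9.38 and 9.40 in PiZ. C1qb read 9.33, 8.93 and 9.10 against 9.48, 8.88 and 8.83. C1qc read 8.84, 8.68 and 8.61 against 9.06, 8.21 and 8.22. In all 3 chains PiZ replicate 1 was above and PiZ replicates 2 and 3 below every wild-type array, and the control gap splits the PiZ arrays the same way. Adjusted for the control gap, the chains read 0.40 (adjusted p = 0.0554), 0.41 (0.103) and 0.37 (0.126), so C1qb and C1qc turned in direction. The differences were 0.06 (SE 0.15, 95% interval -0.29 to 0.42) for C1qa, -0.06 (SE 0.20, -0.52 to 0.40) for C1qb and -0.22 (SE 0.23, -0.75 to 0.32) for C1qc, with limma adjusted p of 0.789, 0.848 and 0.504. None of the 3 had an unadjusted p below 0.05 (0 of 3). Without PiZ replicate 1, C1qc passed as lower (-0.50, adjusted p = 0.00641). C1qb turned to 0.05 after cyclic loess scaling and to 0.04 after a further quantile normalization. Its direction also depended on the probe set: the other 2 probe sets of C1qb read 0.50 (SE 0.13) and 0.54 (SE 0.13) higher in PiZ, with adjusted p of 0.0344 and 0.0315 over all probe sets. On those, all PiZ arrays lay above all wild-type arrays (8.95 to 9.48 against 8.49 to 8.87). They are of a class whose probes can partly match other transcripts.

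Markers of the macrophages that make C1q moved in both directions. Of 11 measured macrophage and Kupffer cell markers, 4 rose and 1 fell (36.4% rose, against 11.3% of all genes), and the median was 0.17. The Kupffer cell lectin Clec4f read 9.61, 9.61 and 9.46 in wild-type and 10.17, 10.34 and 10.11 in PiZ, and rose by 0.64 (SE 0.11, limma adjusted p = 0.00874). The scavenger receptor Marco rose by 0.97 (SE 0.16), Cd5l by 0.67 (SE 0.12) and the lipopolysaccharide receptor Cd14 by 1.02 (SE 0.21), while the haemoglobin scavenger receptor Cd163 fell by 0.56 (SE 0.12). Cd14 did not pass without wild-type replicate 1 or 2 (adjusted p = 0.0652 and 0.0548), and Cd163 did not without wild-type replicate 1, 2 or 3 (0.069, 0.0679 and 0.0519). Pan-macrophage genes did not pass, with Adgre1 at -0.10 (SE 0.25), Cd68 at 0.07 (SE 0.14) and Lyz2 at -0.23 (SE 0.21). Nor did Csf1r at 0.29 (SE 0.14), Mpeg1 at 0.17 (SE 0.12) and Aif1 at -0.00 (SE 0.15). All PiZ arrays of Csf1r lay above wild-type. Without PiZ replicate 1, Csf1r passed as higher (0.41, limma adjusted p = 0.0199) and Lyz2 as lower (-0.44, 0.0456). The mean over the 11 markers ran from 8.44 to 8.54 in wild-type and was 8.88, 8.83 and 8.54 in PiZ. Over the C1q chains the mean was at most 9.25 in wild-type and was 9.47, 8.82 and 8.81 in PiZ, so the marker mean of PiZ replicate 2 was above wild-type while its C1q mean was below.

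**Figure D2:**
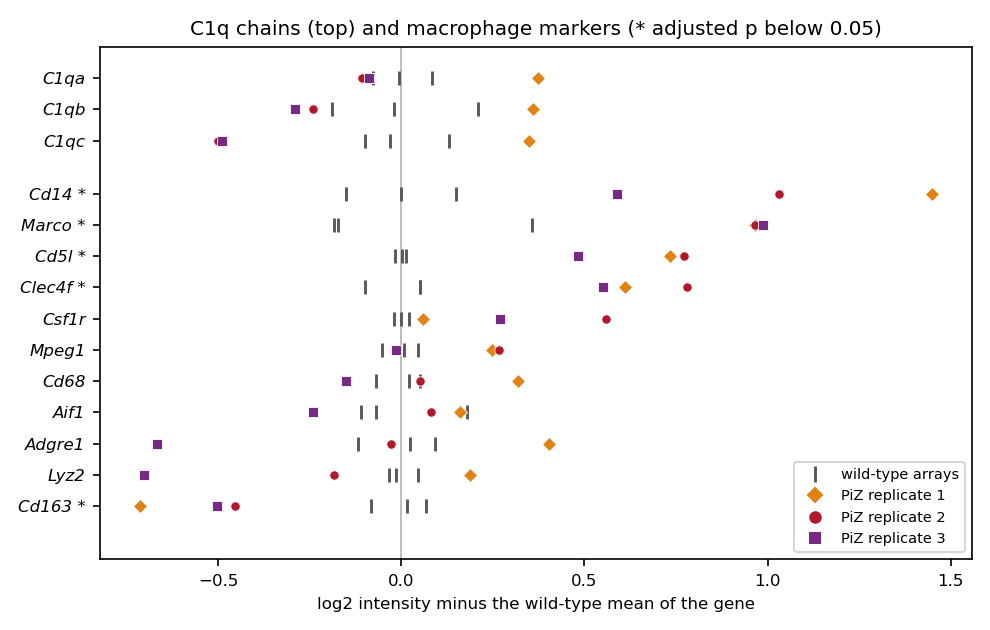
Log2 intensity minus the wild-type mean of each gene for the C1q chains (top) and 11 macrophage markers, by array. Cd14, Marco, Cd5l and Clec4f lie right of wild-type on all 3 PiZ arrays and Cd163 lies left, while the C1q chains are high in PiZ replicate 1 (orange) and low in PiZ replicates 2 and 3.

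In the lectin pathway 2 of 6 measured genes fell (33.3%, against 12.3% of all genes), and the mannose-binding lectins did not pass. The median was -0.28. Masp2, the protease that cleaves C4 and C2 in this pathway, read 10.44, 10.63 and 10.58 in wild-type and 9.53, 10.15 and 9.76 in PiZ. All PiZ arrays were lower, and here PiZ replicate 1 was the lowest. Masp2 fell by 0.74 (SE 0.17, limma adjusted p = 0.0198). The call ended after cyclic loess (adjusted p = 0.0579), after a further quantile normalization (0.0578), without wild-type replicate 1, 2 or 3 (0.0592, 0.0755 and 0.0806) and without PiZ replicate 3 (0.0709). Colec12, a scavenger receptor with a collectin domain expressed on endothelium and other stromal cells, read 8.08, 7.73 and 7.85 against 7.28, 7.37 and 7.10. It fell by 0.64 (SE 0.13, adjusted p = 0.0155), and did not pass without wild-type replicate 1 or 3 (0.0707 and 0.0622) or PiZ replicate 3 (0.0562). Adjusting for the control gap also ended this call (0.0689).

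The remaining lectin pathway genes showed small differences. Mbl2 differed by -0.31 (SE 0.11, adjusted p = 0.0712), Mbl1 by -0.21 (SE 0.10, 0.178) and Masp1 by -0.26 (SE 0.10, 0.0908), each without overlap of the groups. Mbl1 and Mbl2 encode mannose-binding lectins A and C, and Masp1 the protease that activates Masp2. Without PiZ replicate 1, Mbl2 (-0.35, adjusted p = 0.0188) and Masp1 (-0.28, 0.0408) passed. The ficolin Fcna, made by macrophages, read 9.04 to 9.08 in wild-type and 8.87 to 9.13 in PiZ and differed by -0.05 (SE 0.11), or by 0.06 after cyclic loess.

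Factor B fell and properdin did not pass among the 2 measured alternative pathway genes. Cfb, the protease subunit of the alternative C3 convertase, read 12.04, 12.03 and 11.99 in wild-type and 11.34, 10.56 and 10.46 in PiZ. The wild-type arrays lay within 0.1 of each other, and PiZ replicate 1 lies between them and PiZ replicates 2 and 3. The fall was 1.24 (SE 0.22, limma adjusted p = 0.00917), or 2.35-fold, and Cfb passed in each of 16 alternative fits. It differed by -0.69 (adjusted p = 0.0239) when adjusted for the control gap. Cfb and C2 are direct neighbours on chromosome 17 in the RefSeq gene order. Cfp, or properdin, which stabilises that convertase and is made by myeloid cells, read 7.68 to 7.74 against 7.63 to 7.94 and differed by 0.12 (SE 0.12, 95% interval -0.16 to 0.41).

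The terminal pathway held the largest fall among the complement genes and fell almost throughout. Of 6 measured genes 5 fell and 0 rose (83.3% lower, against 12.3% of all genes). Their median was -0.85, with -0.81 in PiZ replicate 1, -0.88 in replicate 2 and -1.01 in replicate 3. C9, which polymerises to the pore of the membrane attack complex, read 13.44, 13.51 and 13.20 in wild-type and 11.93, 12.05 and 10.99 in PiZ. The groups did not overlap, and PiZ replicate 3 lay about 1 log2 unit below the other PiZ arrays. C9 fell by 1.72 (SE 0.27, limma adjusted p = 0.00572), or 3.3-fold. Hc, the mouse gene for C5, read 12.88, 12.88 and 12.69 against 12.02, 11.99 and 11.80 and fell by 0.88 (SE 0.12, adjusted p = 0.0033).

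The chains of C8, which anchors the complex in the membrane, fell together. C8a read 13.51, 13.54 and 13.38 in wild-type and 12.59, 12.79 and 12.61 in PiZ, a fall of 0.81 (SE 0.11, limma adjusted p = 0.00375). Its direct neighbour on chromosome 4, C8b, read 11.63, 11.88 and 11.69 against 10.90, 10.56 and 10.75, a fall of 1.00 (SE 0.13, adjusted p = 0.00307). C9, Hc, C8a and C8b passed in each of the 16 alternative fits, and their PiZ arrays all lay below wild-type. C8g, on another chromosome, read 13.15, 13.16 and 13.19 against 12.87, 12.23 and 12.10 and fell by 0.76 (SE 0.20, adjusted p = 0.0308). It moved with the control gap, reading -0.29 in PiZ replicate 1 alone (adjusted p = 0.109) and -0.30 adjusted for the gap (0.217). It also did not pass without wild-type replicate 1, 2 or 3 (0.096, 0.0909 and 0.105) or without PiZ replicate 2 or 3 (0.0924 and 0.1). C6, which binds C5b first, lies near C9 on chromosome 15 and did not pass. It read 8.71, 8.04 and 8.33 in wild-type and 8.33, 8.21 and 8.90 in PiZ, the groups overlapped, and the difference was 0.12 (SE 0.23, 95% interval -0.42 to 0.66).

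Among the 9 regulators, 4 fell and 1 rose, and the median was -0.54. That is 44.4% lower and 11.1% higher, against 12.3% and 11.3% of all genes. Cfhr2, a factor H related plasma protein, read 11.79, 11.91 and 11.64 in wild-type and 10.79, 11.17 and 10.75 in PiZ. All PiZ arrays were lower, and it fell by 0.88 (SE 0.15, limma adjusted p = 0.00732), with all 16 alternative fits passed. Cfi, the protease that cuts C3b and C4b, read 13.45, 13.36 and 13.37 against 12.86, 12.72 and 12.44 and fell by 0.72 (SE 0.13, adjusted p = 0.01). It did not pass without wild-type replicate 1 (adjusted p = 0.0508) or adjusted for the control gap (0.053). Vtn, or vitronectin, which blocks insertion of the membrane attack complex, read 13.87, 13.77 and 13.83 against 13.41, 13.15 and 13.27 and fell by 0.54 (SE 0.11, adjusted p = 0.014). It did not pass without wild-type replicate 1, 2 or 3 (0.0709, 0.0535 and 0.0658) or adjusted for the gap (0.0608).

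The membrane regulators differed from each other. Cd59a, which keeps C9 from polymerising on host cells, read 9.83, 9.81 and 9.80 in wild-type and 9.30, 9.33 and 9.45 in PiZ. It fell by 0.45 (SE 0.10, limma adjusted p = 0.0189), a call lost after cyclic loess (0.0649), after a further quantile normalization (0.0651) and without wild-type replicate 1, 2 or 3 (0.0852, 0.0751 and 0.0799). Cd46, a cofactor for factor I with little expression outside testis in mice, read 4.30, 4.55 and 4.34 in wild-type and 4.77 or more in PiZ, the highest being 5.14 on PiZ replicate 2. It rose by 0.50 (SE 0.14, adjusted p = 0.039). These are dim values near the lower quartile of the arrays, which itself ran from 4.28 to 4.32 in wild-type and from 4.35 to 4.46 in PiZ, and the call held in 6 of 15 alternative fits. It was lost after cyclic loess (adjusted p = 0.07), after a further quantile normalization (0.0626), in PiZ replicate 1 alone (0.115) and adjusted for the gap (0.251), and on leaving out any array except PiZ replicate 1 (adjusted p from 0.0708 without wild-type replicate 2 to 0.142 without wild-type replicate 1, with 0.135, 0.0898 and 0.0762 without wild-type replicate 3 and PiZ replicates 2 and 3).

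C4bp and Cr1l differed between PiZ replicate 1 and the other PiZ arrays. C4bp, the C4b-binding plasma regulator, read 12.40, 12.36 and 12.36 in wild-type and 12.24, 11.28 and 11.47 in PiZ, and differed by -0.71 (SE 0.23, limma adjusted p = 0.0628). Cr1l (Crry), the broad mouse membrane regulator, read 9.49, 9.43 and 9.48 against 9.25, 8.36 and 8.74, a difference of -0.68 (SE 0.21, 0.0525). In both, PiZ replicate 1 lay just below wild-type and the other PiZ arrays far below. Both passed without PiZ replicate 1, where C4bp fell by 1.00 (adjusted p = 0.00026) and Cr1l by 0.92 (0.00106), whereas adjusted for the control gap they read -0.11 (adjusted p = 0.634) and -0.17 (0.491). Clu, or clusterin, differed by -0.02 (SE 0.10, 95% interval -0.25 to 0.22), by 0.14 after cyclic loess and by 0.07 after a further quantile normalization. Cd55, or decay-accelerating factor, read 6.31 to 6.47 in wild-type and 6.25 to 6.96 in PiZ and differed by 0.11 (SE 0.19).

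None of the 8 measured receptors passed in limma (0 of 8), and 3 had an unadjusted p below 0.05, namely Itgax, Cd93 and C5ar1. Over all genes 40% had such a p, so 3 of 8 is near that share. Their median was 0.17. Itgax (CD11c, of complement receptor CR4) read 5.54, 5.29 and 5.54 in wild-type and 5.64, 6.12 and 6.27 in PiZ, and differed by 0.56 (SE 0.18, adjusted p = 0.0569). Cd93, an endothelial and myeloid surface protein once named a C1q receptor, read 6.18, 6.28 and 6.25 against 6.86, 7.13 and 6.32, a difference of 0.53 (SE 0.20, adjusted p = 0.0876). In neither did the groups overlap. Itgax passed as higher without PiZ replicate 1 (0.74, adjusted p = 0.00189), and Cd93 passed as higher without PiZ replicate 3 (0.76, 0.0219) and read 0.62 in PiZ replicate 1 alone (0.015, where wild-type arrays alone give the spread). The anaphylatoxin receptor C5ar1 read 4.68 to 4.89 in wild-type and 4.94 to 5.32 in PiZ (0.33, SE 0.13, adjusted p = 0.106). Vsig4, the Kupffer cell receptor for C3b fragments, read 9.96, 9.84 and 9.90 against 10.13, 9.51 and 9.38. It showed the same array order as the C1q chains, at -0.23 (SE 0.19), and passed as lower without PiZ replicate 1 (-0.45, adjusted p = 0.00733). It turned to 0.23 (adjusted p = 0.293) adjusted for the control gap and to 0.22 (0.213) in PiZ replicate 1 alone. C3ar1, Itgam, Itgb2 and Cr2 differed by -0.03 to 0.23, with adjusted p from 0.197 to 0.919. C3ar1, C5ar1, Cr2, Itgam, Itgax and Itgb2 averaged below 6.25, the median over probe sets, and no detection calls were used here to set them against background.

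By main source in liver, as known from general biology, 13 of 19 hepatocyte-made genes fell and 0 rose (68.4% lower, against 12.3% of all genes). Of 11 genes of macrophages and other myeloid cells, 0 fell and 0 rose in limma, and 2 had an unadjusted p below 0.05 (Itgax and C5ar1, both higher), against 40% of all genes. The median was -0.76 for the former and 0.06 for the latter, beside 0.08 for all genes. Of 7 genes with another source or several, 2 fell (Cd59a and Colec12) and 1 rose (Cd46). That is 28.6% lower and 14.3% higher, against 12.3% and 11.3% of all genes. In PiZ replicate 1, 18 of the 19 hepatocyte-made genes, all but C6, read below all wild-type arrays, against 35.6% of all genes. On the same array 9 of the 11 myeloid genes read above all wild-type arrays, against 38% of all genes. PiZ replicate 1 alone, with the spread of the wild-type arrays only, gave 12 lower hepatocyte-made genes and 0 lower myeloid genes, where 9.8% of all genes were lower. The fit adjusted for the control gap gave 9 and 0, where 7.64% of all genes were lower. Without PiZ replicate 1 the counts were 16 and 2, where 22.4% of all genes were lower, the latter being C1qc and Vsig4, and 1 myeloid gene, Itgax, was higher. The difference between the sources was not tested.

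**Figure D3:**
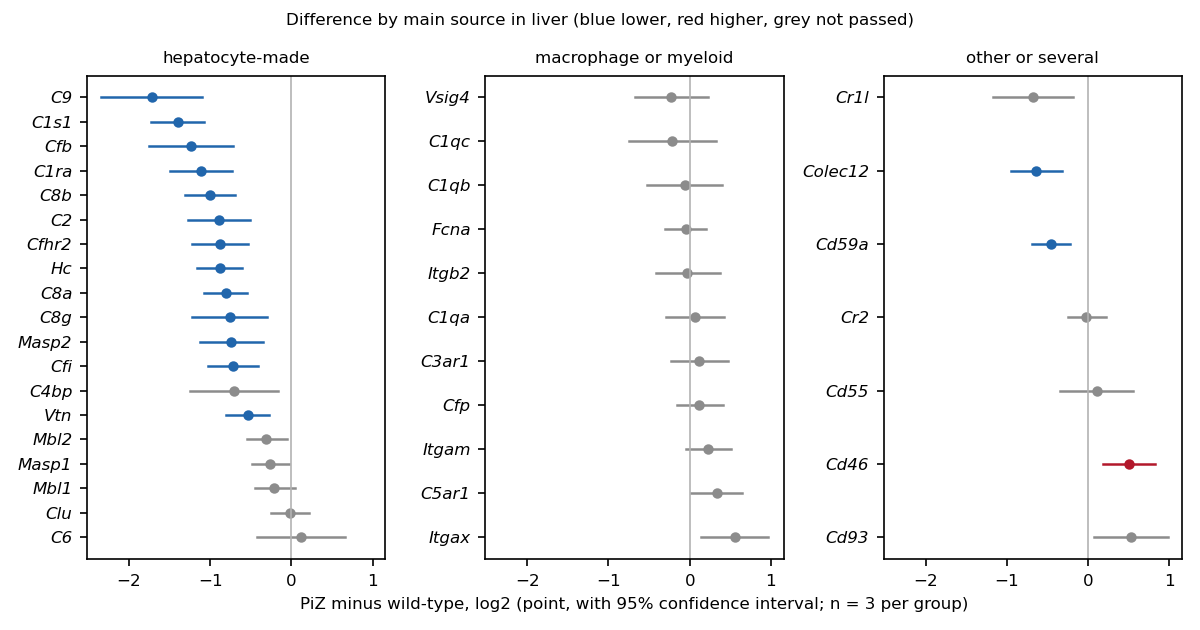
PiZ minus wild-type difference (log2, limma) with its 95% confidence interval for each measured complement gene, in panels by main source in liver, n = 3 arrays per group. Intervals of 13 hepatocyte-made genes lie left of 0 with an adjusted p below 0.05 (blue), whereas no gene of the myeloid panel passed (grey).

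Of the 37 genes, 10 had more than 1 probe set, and several of these probe sets disagreed. Cfhr2 read -0.88 and -1.13 and Cd59a -0.45 and -0.80, so both their probe sets were lower. Vtn read -0.54 on the brighter and -1.17 (SE 0.15, adjusted p = 0.00407 over all probe sets) on the dimmer probe set, where wild-type arrays lay at 12.82 to 12.84 and PiZ arrays at 11.99, 11.54 and 11.45. Masp2 read -0.74 and -0.62, but PiZ replicate 1 was the lowest PiZ array on the first and the highest on the second. Clu read -0.02, 0.00 and -0.05 on its brighter probe sets and -0.52 (SE 0.16, adjusted p = 0.0566) on the dimmest. Masp1 read -0.26 on the brightest and between 0.05 and 0.29 on its other 4, which did not pass. C3ar1 read 0.12 and 0.60, Cd55 0.11 and -0.08, and Cd93 0.53 and 0.07. Whether these probe sets read different transcript ends or forms was not tested.

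**Figure D4:**
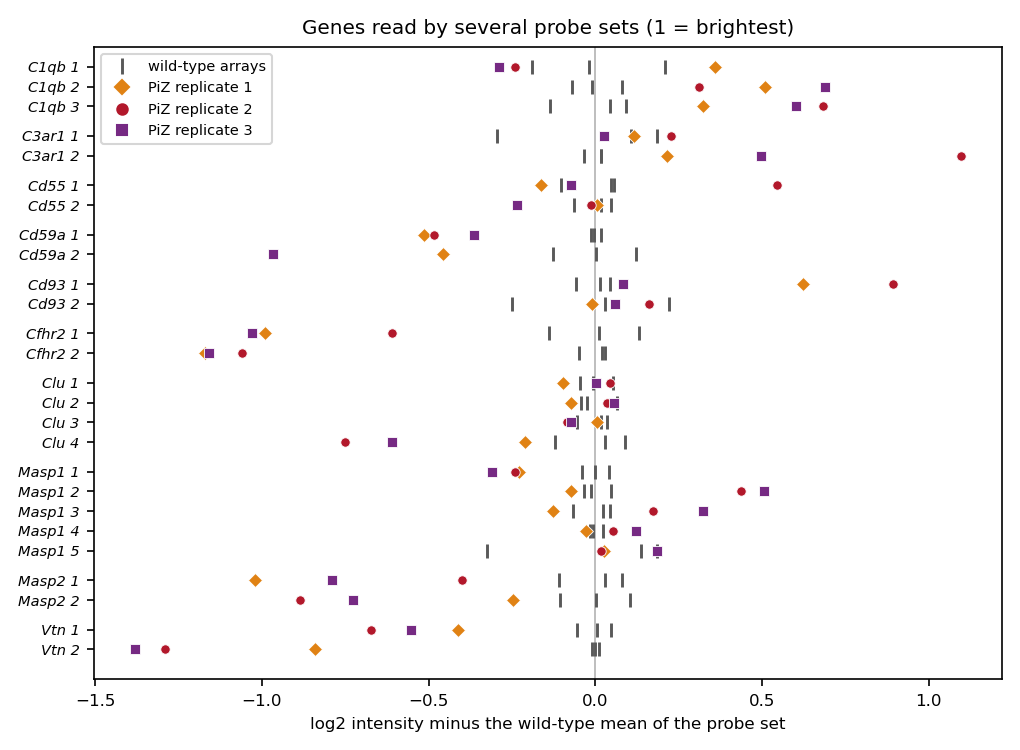
Log2 intensity minus the wild-type mean for every probe set of the 10 genes read by more than 1, numbered from the brightest, by array. Both probe sets of Cfhr2, Cd59a, Masp2 and Vtn lie left of wild-type in PiZ, while C1qb, Clu and Masp1 hold probe sets that differ in direction or size.

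Further complement genes outside the list were read from a second list of 17, of which 10 were measured, 2 fell and 1 rose. That is 20% lower and 10% higher, against 12.3% and 11.3% of all genes. Serping1, the C1 inhibitor that inactivates C1r, C1s and MASP proteases, read 13.16, 13.06 and 13.09 in wild-type and 12.39, 11.73 and 11.79 in PiZ, a fall of 1.13 (SE 0.18, limma adjusted p = 0.00633). Cpn2, the regulatory subunit of carboxypeptidase N, which trims anaphylatoxins, fell by 0.86 (SE 0.16, limma adjusted p = 0.0103), or did not pass without wild-type replicate 3 (0.0516). Its catalytic subunit Cpn1 read -0.27 (SE 0.15) and did not pass. Calr, an endoplasmic reticulum chaperone that also binds C1q, rose by 0.81 (SE 0.13, adjusted p = 0.00637). The pentraxins, soluble activators of C1q, did not pass: Crp read -0.44 (SE 0.17), Apcs 0.17 (SE 0.16) and Ptx3 0.08 (SE 0.11).

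Of 13 measured factors known to act on complement and acute phase genes in hepatocytes, 2 fell and 2 rose. That is 15.4% each way, near the 12.3% and 11.3% of all genes. Cebpa, a factor of mature hepatocytes, read 10.54, 10.76 and 10.78 in wild-type and 9.89, 10.08 and 9.75 in PiZ and fell by 0.78 (SE 0.13, limma adjusted p = 0.00717). The acute phase factors of the same family rose, Cebpb by 0.66 (SE 0.12, adjusted p = 0.00934) and Cebpd by 1.11 (SE 0.24, adjusted p = 0.0167). Cebpd read 7.09, 7.42 and 7.26 in wild-type and from 7.97 to 8.93 in PiZ, with PiZ replicate 1 the highest, and did not pass without wild-type replicate 1 or 3 (adjusted p = 0.0706 and 0.0651). Socs3, a target and inhibitor of interleukin 6 signalling through STAT3, read 8.28, 9.83 and 8.88 against 6.43, 6.98 and 6.74 and fell by 2.28 (SE 0.36, adjusted p = 0.00589). The other 9 did not pass, among them Stat3 at -0.15 (SE 0.10), the interleukin 6 receptor chains Il6ra at 0.30 (SE 0.33) and Il6st at 0.02 (SE 0.13), Creb3l3 at -0.26 (SE 0.11) and Hnf4a at -0.12 (SE 0.11, and 0.03 after cyclic loess).

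Markers of other cells were read beside these results. Of 9 measured hepatocyte markers 1 fell (Fgb by 0.83, SE 0.18) and 1 rose (Tat by 1.12, SE 0.27). That is 11.1% each way, near the 12.3% and 11.3% of all genes. Yet 8 of the 9 differences were negative (88.9%, against 41.2% of all genes), with a median of -0.20, or -0.03 after cyclic loess. The groups did not overlap for 5 markers lower in PiZ (19.9% of all genes) and 1 higher (24.9% of all genes). Without PiZ replicate 1, 5 markers fell and 1 rose, where 22.4% of all genes fell. The mean of the 9 markers ran from 14.05 to 14.12 in wild-type and was 14.21, 13.85 and 13.86 in PiZ. Leaving out any wild-type array ended both calls (adjusted p from 0.0548 to 0.0735 for Fgb, and 0.0557, 0.0859 and 0.0927 for Tat). Fgb also did not pass without PiZ replicate 2 or 3 (0.0561 and 0.0629), in PiZ replicate 1 alone (0.0638) or adjusted for the control gap (0.0929), nor Tat without PiZ replicate 3 (0.0567). Albumin, at 14.63 to 14.96, lies near the top of the arrays' range (maximum 14.98). Of 7 neutrophil markers 2 rose (28.6%, against 11.3% of all genes), S100a8 by 2.76 (SE 0.25) and S100a9 by 2.27 (SE 0.25). All 7 differences were positive in the main fit, with a median of 0.40. Csf3r read 0.49 (SE 0.16) and Ltf 0.40 (SE 0.13), both without overlap of the groups, while Camp read 0.19 (SE 0.13), Mpo 0.04 (SE 0.12) and Elane 0.07 (SE 0.10). Ltf, Camp, Mpo and Elane are dim, with group means from 3.50 to 5.15, below the 6.25 median over probe sets. After cyclic loess Mpo turned to -0.08 and Elane to -0.06, while Camp read 0.06 and Ltf 0.27. The mean of the neutrophil markers ran from 4.57 to 4.88 in wild-type and from 5.48 to 5.69 in PiZ. No marker of B cells (3 measured), endothelium (6), stellate cells (6), biliary cells (4) or blood (2) passed in limma, and 4 of these 21 had an unadjusted p below 0.05, against 40% of all genes. Of 3 adipocyte markers Fabp4 rose by 0.55 (SE 0.16) while Retn read 0.31 (SE 0.12), without overlap of the groups. Adipoq, a defining one, read 0.01 (SE 0.11) at a mean of 3.18 in both groups, which is close to the arrays' lowest values. The Fabp4 call was lost without wild-type replicate 1 or 3 (adjusted p = 0.152 and 0.146), without PiZ replicate 3 (0.127), with the replicate number as a block (0.0615) and adjusted for the control gap (0.0842). The part of cell composition in the complement results was not tested.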

How the data were processed

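The authors deposited 1 log2 intensity for each probe set and array. The submitters' processing notes name RMA and the affy package, and the sources used here give no version, chip definition or filter. RMA corrects background, makes the arrays' distributions alike and summarises probes, so a shift shared by most genes would be removed. The log2 scale was read from the values. Total RNA was column-purified and labelled as biotinylated cRNA, per the labels' protocols.

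All 6 value columns were matched to samples. Of 22690 probe sets (64 of them controls) the platform annotation named 1 gene for 20380, several for 691 and none for 1555. Each of 12393 genes was read by its brightest single-gene probe set (mean of all 6 arrays), and all 37 measured complement genes carried the same symbol in the RefSeq table. Groups came from the sample titles. The comparison used lmFit and eBayes of limma 3.58.1 (R 4.3.3), two-sided and without covariates, with Benjamini-Hochberg adjustment and a threshold of 0.05. The fit was tested on simulated data. Tables and figures used Python 3.11.15, pandas 2.3.3 and matplotlib 3.10.9.

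Values per array are given for genes that passed, for the C1q chains and for the leading genes of a role in which none passed. C3, also chosen for this, had no probe set of its own. C4bp, Cr1l, C6 and Vsig4 were given in full after their values were seen. Alternatives changed the probe set rule, dim genes, scaling, variance model, array weights, blocking and arrays included. The complement genes and all lists, roles and sources were chosen with earlier results of these data known. The 7 promoter motifs and the windows printed were chosen after the values were seen. Genome coordinates are those of the RefSeq promoter table, since the deposited values name no build.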

Additional observations from a re-analysis of the deposited data

How the results depend on the processing

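The complement results were recomputed in 16 alternative fits. The 15 complement genes lower and 1 higher became 13 and 0 under cyclic loess and likewise under a further quantile normalization, 16 and 0 without dim genes, 15 and 2 with the probe set of largest variance, 21 and 2 with array weights, 10 and 0 adjusted for the control gap, and 8 and 0 at an adjusted p below 0.01. Leaving out 1 array in turn gave 9 to 21 lower (fewest without wild-type replicate 1, most without PiZ replicate 1) and 0 to 2 higher (most without PiZ replicate 1), and 1068 to 6175 changed genes overall (lowest without wild-type replicate 3, highest without PiZ replicate 1, against 2921 with all arrays). Changed genes were 6520 with array weights, 1814 adjusted for the gap and 914 at 0.01. The median complement difference of -0.26 was -0.59 without dim genes, -0.15 after cyclic loess, -0.40 with array weights, and between -0.43 and -0.24 without 1 array. Over all genes the median of 0.08 was -0.07 without dim genes, 0.02 after cyclic loess, 0.10 with array weights, and between 0.06 and 0.12 without 1 array. Of the 15 lower genes, 8 passed in every alternative (C1ra, C1s1, C8a, C8b, C9, Cfb, Cfhr2 and Hc). Of 334 alternative values of 21 genes (the 16 that passed, the C1q chains, Itgax and Cd93), 277 kept direction and call, 38 lost the call, 6 gained it and 13 reversed, all 13 in C1q chains. Genes outside these 21 that did not pass reversed too, such as Clu and Fcna in 5 alternatives each and Itgb2 in 4. C1qa read -0.06 with array weights, and from -0.10 (without PiZ replicate 1) to 0.14 (without PiZ replicate 2) with 1 array left out, and 0.40 adjusted for the gap and 0.37 in PiZ replicate 1 alone. C1qb read 0.33 as the mean of its probe sets, 0.54 on the probe set of largest variance, 0.05 after cyclic loess, 0.04 after a further quantile normalization, 0.41 adjusted for the gap, 0.36 in PiZ replicate 1 alone, 0.05 without wild-type replicate 1, and 0.03 and 0.06 without PiZ replicate 2 or 3, the lowest being -0.27 without PiZ replicate 1. C1qc read 0.37 adjusted for the gap and 0.35 in PiZ replicate 1 alone. The cause was not tested. With the replicate number as a block, 17 complement genes were lower (C4bp and Cr1l added) and 1 higher, and 3225 genes changed. Same-numbered arrays deviated together at correlations of 0.264, 0.285 and -0.034, and replicate 3 correlated better with another number (0.057), so the numbers were not taken to pair the animals. With no detection calls, depth of signal limits the dim receptors.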
